A study of Mus musculus with 7 samples.

Results

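The FHL genes Fhl1, Fhl2 and Fhl3, the related LIM domain genes Csrp3 and Ldb3, the muscle ankyrin repeat genes Ankrd1, Ankrd2 and Ankrd23 and the Xin repeat genes Xirp1 and Xirp2 were taken by symbol from a table of 21487 genes, which held all 10. RNA had been measured in immobilized gastrocnemius, the large fast calf muscle of the mouse. The controls (3 libraries) were flox mice, which the labels also call WT, and the knockouts (4 libraries) were mice of the line MPARK7KO, which lack DJ-1, the product of Park7, in skeletal muscle. All libraries came from immobilized muscle, so what immobilization itself did to these genes could not be tested. The sources used here do not name the Cre driver, age, sex or time of immobilization, or say that each library is 1 animal, so p-values measure the spread between samples only.

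These genes encode proteins that sit where load passes through the muscle fibre. LIM domains are zinc-binding modules that hold other proteins: Fhl1 and Csrp3 (muscle LIM protein) bind titin-associated and Z-disc proteins, and Ldb3 (ZASP or Cypher) ties into the Z-disc through alpha-actinin. The ankyrin repeat proteins bind the spring region of titin beside the protease calpain 3 and also occur in the nucleus, and Ankrd1 and Ankrd2 are known to be induced by stretch. Xin repeat proteins bind actin filaments and filamin C, and Xirp1 (Xin) gathers at sites of damage in the fibre.

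Library totals ran from 24458343 to 26389010 counts. Park7 checked the labels: it stood between 229 and 266 counts-per-million (CPM) in the controls and between 34.7 and 41.5 CPM in the knockouts. The muscle genes Acta1 and Ckm were abundant in every library (14047 to 23845 and 11384 to 19092 CPM). Of 7 heart genes, Nppa, Nppb, Mybpc3 and Tnni3 stood at or below 0.153 CPM, while Tnnt2 read 1.197 to 3.86, Myh6 0.580 to 4.95 and Actc1 24.2 to 63.9 CPM over the libraries, and Myh6 was called lower (adjusted p = 0.0128). Control 2 had the highest level of 9 of the 10 genes among the controls. For each of the 10, the result without control 2 is therefore given where its call or sign changed.

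The promoters of genes on which the results turn are shown first, as the 250 bases before a RefSeq gene start on GRCm38.p6, read along the gene's strand. RefSeq promoters matched 9 of the 10 genes (all but Xirp1), with 14 starts in all. Capitals mark matches, on either strand, to the MCAT motif CATTCC bound by TEAD factors, the CArG box bound by SRF, the MEF2 box and the AP-1 motif TGANTCA. No marked matches overlap each other in these windows. Fhl1 and Ankrd2 are shown as the genes that fell most among those called, Xirp2 as the third gene called, and Ankrd1 as the stretch gene most tied to control 2.
Fhl1, chrX:56779433-56779682, plus strand: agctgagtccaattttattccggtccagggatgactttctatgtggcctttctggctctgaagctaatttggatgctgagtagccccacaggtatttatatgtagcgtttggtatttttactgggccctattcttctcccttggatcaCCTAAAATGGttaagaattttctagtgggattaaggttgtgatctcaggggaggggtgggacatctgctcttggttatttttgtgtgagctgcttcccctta
Ankrd2, chr19:42035777-42036026, plus strand: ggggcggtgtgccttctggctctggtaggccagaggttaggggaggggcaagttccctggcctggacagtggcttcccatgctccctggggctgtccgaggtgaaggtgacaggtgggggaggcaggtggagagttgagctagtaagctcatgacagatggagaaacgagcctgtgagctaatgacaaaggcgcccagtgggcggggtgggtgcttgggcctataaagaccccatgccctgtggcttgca
Xirp2, chr2:67445752-67446001, plus strand: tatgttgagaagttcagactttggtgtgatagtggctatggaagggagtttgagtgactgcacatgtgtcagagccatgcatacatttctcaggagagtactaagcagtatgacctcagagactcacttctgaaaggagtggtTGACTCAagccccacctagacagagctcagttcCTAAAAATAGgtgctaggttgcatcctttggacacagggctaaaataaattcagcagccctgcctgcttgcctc
Ankrd1, chr19:36119845-36120094, minus strand: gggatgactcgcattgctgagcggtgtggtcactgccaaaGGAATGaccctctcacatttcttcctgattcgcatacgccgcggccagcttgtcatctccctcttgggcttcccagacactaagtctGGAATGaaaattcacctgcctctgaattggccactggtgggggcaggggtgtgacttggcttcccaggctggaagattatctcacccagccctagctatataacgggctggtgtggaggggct

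The Fhl1 window held a CArG box that began 102 bases before the gene start, whereas its other listed start held none of the 4 motifs. The Ankrd1 window held MCAT motifs that began 210 and 123 bases before the start. The Xirp2 window held an AP-1 motif and a MEF2 box that began 107 and 74 bases before it, and the Ankrd2 window held none of the 4. CArG boxes lay in 5 of the 14 windows, those of Fhl1, Fhl2 and Ldb3, against 1.47% of 32851 windows over all promoters. The windows of Ldb3 overlap and share that match. MCAT motifs lay in 2 windows (Ankrd1 and Ankrd23, 12.6% of all), MEF2 boxes in 2 (Fhl2 and Xirp2, 2.92%) and AP-1 motifs in 3 (Ldb3 and Xirp2, 6.75%). The E-box CANNTG, the short motif of MyoD and related factors, lay in 10 of the 14 windows and in 66.2% of all. Genes with a CArG box included Fhl1, which fell, and Ldb3, which was not called.

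Fhl1, Ankrd2 and Xirp2 fell in muscle without DJ-1, and no gene of the group rose. Fhl1 stood at 0.232 times its control level, Ankrd2 at 0.348 times and Xirp2 at 0.734 times. A gene was called at a Benjamini-Hochberg adjusted p under 0.05 in edgeR's quasi-likelihood test, with adjustment over all 13409 genes tested, which included all 10 of the group. The call was thus made for 3 of 10 genes, where 8.23% of all tested genes were called lower and 6.67% higher. Knockout and control libraries did not overlap for 4 of the 10 (these 3 and Csrp3), all lower in the knockout, which was so for 14.8% of all tested genes. The median log2 fold change of the 10 was -0.86, against 0.0058 over all tested genes, and 9 of the 10 lay below 0. With a fold over 1.5 also required, 2 fell (Fhl1 and Ankrd2, where 5.32% of all tested genes did) and none rose (2.21% did). Of the calls over all genes 44.8% were higher, which became 33.2% with upper quartile scaling. An unadjusted p under 0.05 was reached by 6, the additional genes being Fhl2, Csrp3 and Ankrd1, where 31.8% of all tested genes reached it. With DESeq2, which gave no p for Ankrd1, it was reached by 5 (55.6% of those with a p), against 29.5% of all.

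The number that fell was 1 without control 2, control 3 or knockout 4 (Fhl1 each time), 2 without knockout 3 and 5 without knockout 1. Fhl1 alone among the 10 was called under each of these settings. In this whole tissue, fewer cells that express a gene and less of its RNA per cell cannot be told apart.

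**Figure D1:**
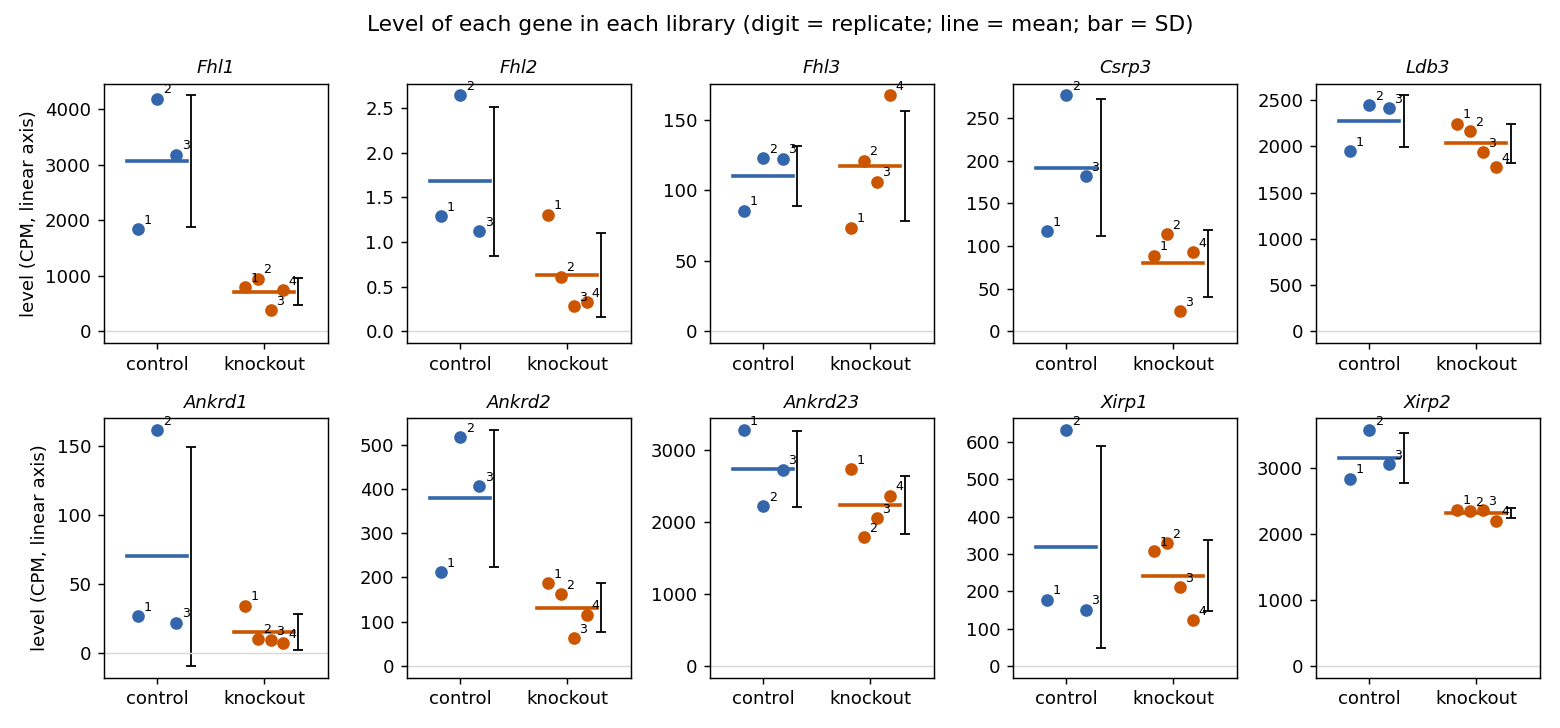
Level of each of the 10 genes in CPM (linear axis) in every library; digits give the replicate, horizontal lines the group mean and vertical bars the SD (3 controls, 4 knockouts). The groups do not overlap for Fhl1, Csrp3, Ankrd2 and Xirp2, and control 2 lies far above the other controls for Ankrd1 (162 CPM) and Xirp1 (632 CPM).

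Among the FHL genes, Fhl1 changed most. Fhl1, a scaffold of the sarcomere whose human counterpart is mutated in several myopathies, lies on the plus strand of chromosome X at 56731787 to 56793346 (GRCm38). It read 1833, 4188 and 3175 CPM in control 1 to 3, from 45591, 109242 and 82178 counts. It read 789.6, 942, 378 and 736 CPM in knockout 1 to 4, from 21766, 24766, 9493 and 18258 counts. All knockouts lay far below the lowest control, and knockout 3 was lowest. The log2 fold change was -2.11 (SE 0.331, adjusted p = 0.00717) and ran from -2.38 to -1.81 with 1 library left out, where the adjusted p stayed between 0.00793 and 0.0279. Fhl1 made up 17.4% to 29.6% of the counts of the 10 genes in the controls and 5.29% to 11.8% in the knockouts.

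Fhl2, best known as a cofactor and scaffold in the heart, was barely present in this muscle. It lies on the minus strand of chromosome 1 at 43123074 to 43196984. Its 32, 69 and 29 counts in the controls came to 1.29, 2.64 and 1.12 CPM. Its 36, 16, 7 and 8 counts in the knockouts came to 1.31, 0.609, 0.279 and 0.322 CPM. Knockout 1 lay among the controls and the other 3 knockouts below them. Its log2 fold change was -1.39 (SE 0.504, adjusted p = 0.0972), and it became -2.05 without knockout 1, where the gene was called (adjusted p = 0.0302), and -0.90 without control 2.

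Fhl3, an FHL protein of skeletal muscle that binds actin, showed no difference that the test could detect. It lies on the plus strand of chromosome 4 at 124700701 to 124708611. The controls read 85.6, 123 and 122 CPM and the knockouts 73.5, 121, 106 and 167 CPM. The lowest and the highest values were both knockouts. Its log2 fold change of 0.09 (SE 0.245, adjusted p = 0.841) turned to -0.07 without control 1 and to -0.14 without knockout 4.

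Csrp3 and Ldb3, the other LIM domain genes, differed in their pattern. Csrp3 encodes muscle LIM protein, which is abundant in heart and slow muscle, and lies on the minus strand of chromosome 7 at 48830398 to 48848033. It read 117, 277 and 182 CPM in the controls and 88.6, 114, 23.3 and 92.5 CPM in the knockouts. All knockouts lay below all controls, with knockout 2 just below control 1 and knockout 3 far below the rest. For Csrp3 the log2 fold change was -1.27 (SE 0.458, adjusted p = 0.0955), which ran from -1.53 to -0.91 with 1 library left out, without a call. Ldb3, on the minus strand of chromosome 14 at 34526603 to 34588682, read 1947, 2450 and 2417 CPM in the controls. Its knockouts read 2248, 2168, 1936 and 1778 CPM, which overlapped with the controls (log2 fold change -0.16, SE 0.126, adjusted p = 0.419).

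Of the ankyrin repeat genes, Ankrd2 fell. Ankrd2 (ARPP), which is enriched in slow muscle and can pass from the sarcomere to the nucleus, lies on the plus strand of chromosome 19 at 42036000 to 42045110. The controls read 212, 517 and 406 CPM and the knockouts 186, 162, 62.1 and 116 CPM. Knockout 1 came close to control 1, and knockout 3 was lowest. On the log2 scale Ankrd2 differed by -1.52 (SE 0.375), with an adjusted p of 0.0294. The call ended without control 2 (-1.23, adjusted p = 0.0930), control 3 (0.0827) or knockout 4 (0.0709). It also ended with a robust prior (0.0686) and with the replicate number as a block (0.0859). The fold change stayed at -1.23 or below in each fit.

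Ankrd1 (CARP), the stretch-induced gene of heart and skeletal muscle, had the lowest fold change of the 10 but was not called. It lies on the minus strand of chromosome 19 at 36111961 to 36120099. It read 26.4, 162 and 21.9 CPM in the controls, from 658, 4214 and 567 counts, and 34.3, 10.2, 9.08 and 6.93 CPM in the knockouts, from 945, 269, 228 and 172 counts. Control 2 was 6.68 times the mean of the other controls, and knockout 1 lay above control 1 and control 3. For Ankrd1 the log2 fold change was -2.20 (SE 0.766, adjusted p = 0.0856). It became -0.67 without control 2 (adjusted p = 0.482) and -3.00 without knockout 1, where the gene was called (adjusted p = 0.0409). DESeq2 gave neither a p nor an adjusted p for Ankrd1.

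Ankrd23 (DARP), the ankyrin repeat gene with the highest RNA level here, was not called. It lies on the minus strand of chromosome 1 at 36530188 to 36536883. The controls read 3283, 2223 and 2732 CPM and the knockouts 2735, 1793, 2054 and 2367 CPM. Control 2 was the lowest control for this gene alone, and the groups overlapped (log2 fold change -0.30, SE 0.175, adjusted p = 0.280).

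Of the Xin genes, Xirp2 fell slightly and evenly. Xirp2 (myomaxin), an actin-binding protein of the Z-disc region that is a target of MEF2A in the mouse heart, lies on the plus strand of chromosome 2 at 67446002 to 67526614. The controls read 2841, 3581 and 3066 CPM and the knockouts 2375, 2345, 2363 and 2206 CPM. The knockouts lay within 1.08-fold of each other and all below the controls. On the log2 scale Xirp2 differed by -0.45 (SE 0.110), with an adjusted p of 0.0295. The call ended without control 2 (-0.35, adjusted p = 0.0945), control 3 (0.0786), knockout 3 (0.0634) or knockout 4 (0.0704), and with the replicate number as a block (0.0603).

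Xirp1, on the minus strand of chromosome 9 at 120013755 to 120023598, read 177, 632 and 151 CPM in the controls. Its knockouts read 307, 329, 210.5 and 123 CPM. Knockout 1, 2 and 3 lay above control 1 and control 3 and below control 2, so the sign of the difference hung on control 2. The log2 fold change was -0.40 with all libraries (SE 0.502, adjusted p = 0.618) and 0.57 without control 2 (adjusted p = 0.326).

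**Figure D2:**
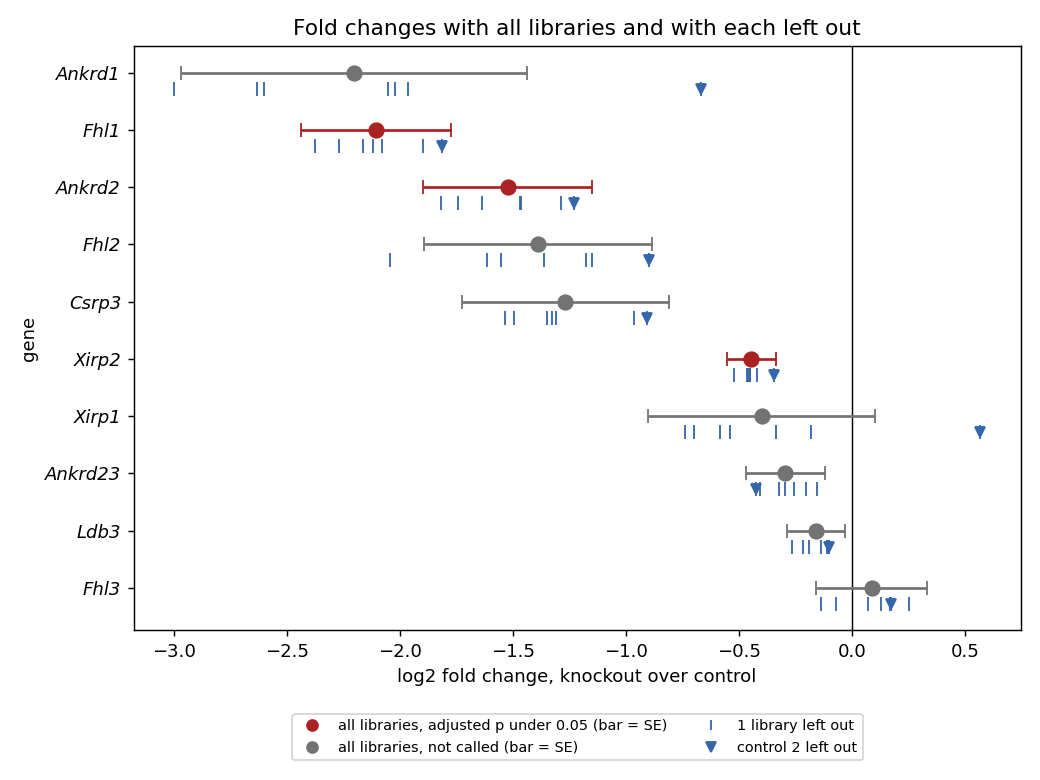
Log2 fold change, knockout over control (horizontal axis), of the 10 genes with all libraries (large points, bars are SE; red where the adjusted p is under 0.05) and with each library left out in turn (blue marks; triangles without control 2). Fhl1 stays between -2.38 and -1.81, whereas Ankrd1 moves from -2.20 to -0.67 and Xirp1 from -0.40 to 0.57 without control 2.

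Whether relatives moved by different amounts was tested on the log2 ratio of their counts within each library, which does not depend on how libraries are scaled. Over 7 ratios, exact permutation (2-sided, 35 arrangements of the group labels) gave no call after Benjamini-Hochberg adjustment. A ratio that alone reaches the smallest possible p of 0.0286 adjusts to 0.2, so no ratio could be called on its own. The ratio of Fhl1 to Fhl3 was 4.74 ± 0.338 (SD, n = 3 controls), against 2.59 ± 0.734 (SD, n = 4 knockouts), without overlap. That difference of -2.15 had the smallest p the design allows (exact permutation p = 0.0286, 0.2 adjusted) and lay between -2.43 and -1.90 with 1 library left out. The ratio of Fhl1 to Fhl2 differed by -0.55 (exact permutation p = 0.371, adjusted 0.520), which became -0.20 without knockout 1, -0.25 without control 3 and -0.84 with 5 counts added in place of 0.5. The ratio of Fhl2 to Fhl3 differed by -1.60 (exact permutation p = 0.143, adjusted 0.333). The ratio of Ankrd2 to Ankrd23 differed by -1.25 (exact permutation p = 0.143, adjusted 0.333), that of Ankrd1 to Ankrd23 by -1.60 (exact permutation p = 0.2, adjusted 0.350) and that of Ankrd1 to Ankrd2 by -0.35 (exact permutation p = 0.657, adjusted 0.686). The ratio of Xirp1 to Xirp2 differed by 0.26 (exact permutation p = 0.686, also after adjustment). Without control 2 the difference was 0.29 for Ankrd1 to Ankrd2, -0.54 for Ankrd1 to Ankrd23 and 0.82 for Xirp1 to Xirp2.

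Levels between genes were compared as CPM per kb of annotated exon. In the controls Ankrd23 was highest, at 1018 ± 196 CPM per kb (SD, n = 3), followed by Fhl1 at 825 ± 318, and these ranges overlapped. Below them came Ldb3 (372), Ankrd2 (333) and Xirp2 (264), each overlapping with the next. A further step down held Csrp3 (71.9), Fhl3 (65.5), Xirp1 (54.8) and Ankrd1 (24.2), again each overlapping with the next, and Fhl2 was lowest at 0.888. In the knockouts Fhl1, at 192 ± 64.3 CPM per kb (SD, n = 4), stood behind Ankrd23 (829.6), Ldb3 (333) and Xirp2 (194). Its range overlapped with those of Xirp2 and Ankrd2 (116). In the knockouts Csrp3, at 29.8, lay below Xirp1 (41.5) with overlapping ranges and below Fhl3 (69.5) without overlap.

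Most of these genes varied more between libraries of a group than genes in general. The within-group SD of log2 CPM was above the median of all tested genes (0.188) for 8 of the 10, from 0.270 for Ankrd23 to 1.28 for Ankrd1. Ldb3 (0.168) and Xirp2 (0.114) lay below that median. Control 2 was over 2-fold above the mean of control 1 and control 3 for Ankrd1 (6.68), Xirp1 (3.86) and Fhl2 (2.20), 3 of the 10 genes, against 0.694% of all tested genes. Csrp3, Fhl1 and Ankrd2 followed at 1.85, 1.67 and 1.67 times.

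Other genes were set beside them by the root mean square difference of their log2 levels over the 7 libraries, each relative to its control mean, as a description of shape. Nearest to Fhl1 were Smtnl1, a smoothelin-like protein (0.195), Atp1b1, a subunit of the sodium pump (0.255), and Gm32391 (0.329), where the median gene stood at 1.68. Smtnl1 read 103, 151 and 121 CPM in the controls and 30.4, 38.4, 15.7 and 32.3 CPM in the knockouts. Nearest to Ankrd2 were Rab15 (0.295), Actn2 (0.326) and Prg4 (0.330), against a median of 1.32, and its nearest relative was Csrp3 (0.356). Nearest to Xirp2 were Wdr1, a cofactor of actin disassembly (0.0557), Shisa4 (0.0590) and Adgre5 (0.0675), against 0.436. All 9 were called lower, as were 8.23% of all tested genes. They were chosen for likeness to genes called lower, so this direction was largely set by the choice. Smtnl1, Atp1b1, Gm32391 and Actn2 kept their call with each library left out. The call of Rab15 ended without control 3 (adjusted p = 0.0630), and those of Prg4, Wdr1, Shisa4 and Adgre5 ended without control 2 (0.113, 0.0624, 0.0864 and 0.0643) and at least 2 other libraries. A block on the replicate number ended those of Rab15, Prg4, Wdr1 and Shisa4 (0.0759, 0.0814, 0.0828 and 0.0865). Chosen after values were seen, the genes nearest to Xirp1 included its partner Flnc, filamin C (0.324), and Hspb1, a small heat shock protein (0.290). Flnc read 1160, 2917 and 1219 CPM in the controls and 2247, 1944, 1891 and 923 CPM in the knockouts. Its high control 2 was favoured by its choice for likeness to Xirp1. The log2 fold change of Flnc was -0.01 (adjusted p = 0.987), and 0.56 without control 2. Those nearest to Ankrd1 included Mustn1, a small nuclear protein of muscle and tendon (0.577), which read 85.1, 422 and 176 CPM in the controls and 102, 50.6, 58.4 and 37.1 CPM in the knockouts.

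Genes of slow fibres were also lower in the knockouts, and of the genes described here Csrp3 and Ankrd2 are known to be richer in slow fibres. The summed level of 13 slow fibre genes ran from 1994 to 2411 CPM in the controls and from 97.5 to 790.5 CPM in the knockouts. There 12 of the 13 lay below all controls, as did 14.8% of all tested genes, and 7 were called lower, as were 8.23%. Slow myosin Myh7 read 238, 9.29, 5.78 and 288 CPM in knockout 1 to 4, while Fhl1 read 789.6, 942, 378 and 736 CPM in the same libraries. Knockout 2, nearly without slow myosin, thus had the highest Fhl1, Csrp3 and Xirp1 of the knockouts, and knockout 3 was low for Myh7, Fhl1, Csrp3 and Ankrd2. Type IIa myosin Myh2 read 1167, 1595, 124 and 1696 CPM in the knockouts against 4708 to 6810 CPM in the controls. Type IIx myosin Myh1 read 2714, 5624, 1676 and 4903 CPM against 9793 to 10572 CPM, and knockout 3 was the lowest for both. Type IIb myosin Myh4 read 73365, 96168, 129514 and 100369 CPM against 40535 to 57140 CPM. The part of the fibre mix in the changes of Fhl1, Ankrd2 and Xirp2 was not tested.

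**Figure D3:**
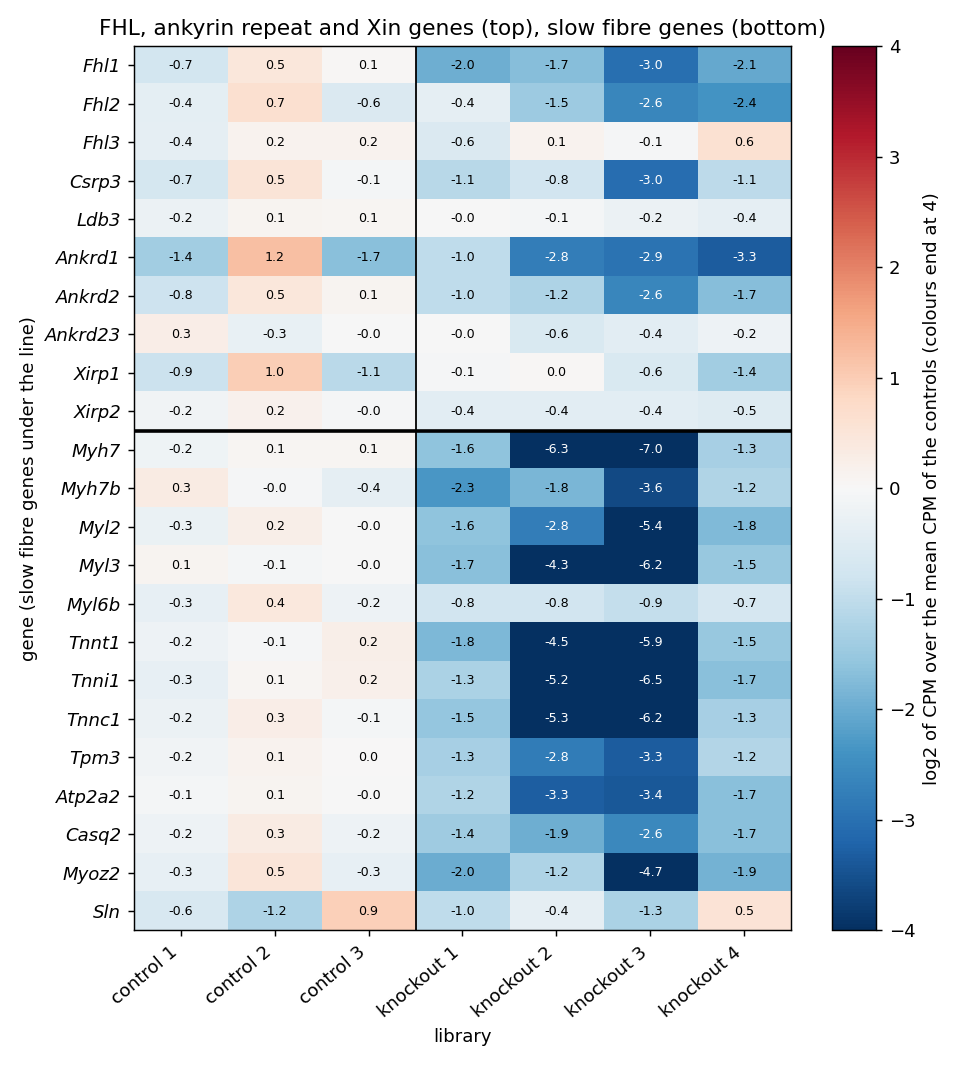
Log2 of CPM over the mean CPM of the controls (colour and printed values) for the 10 genes above the line and 13 slow fibre genes below it (rows) in each library (columns). Knockout 2 and 3 are lowest for Myh7 (-6.28 and -6.97). In the same libraries Fhl1 is at -1.70 and -3.02. Of the slow fibre genes, Tnni1 is at -5.25 and -6.50 there. Myoz2 alone among them has knockout 2 as its highest knockout (-1.23, with knockout 3 at -4.66).

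Some markers of other cells also moved. The summed level of 7 macrophage genes ran from 46.0 to 71.5 CPM in the controls and from 27.9 to 42.6 CPM in the knockouts. Of these 7, 3 were called lower (Cd68, Csf1r and Lyz2), while Cd163 and Mrc1 hardly differed (log2 fold change -0.03 and 0.01, adjusted p = 0.960 and 0.990). The call of Cd68 ended without control 2 (adjusted p = 0.0867). The 5 Schwann cell genes summed to 259, 65.1 and 80.6 CPM in control 1 to 3 against 41.4 to 58.4 CPM in the knockouts, with 2 called lower. The ranges overlapped for the lists of fibroblasts (309.8 to 714 against 218 to 357 CPM, 3 of 7 called lower), endothelium (211 to 278 against 191 to 226 CPM, 0 of 6), and pericytes and smooth muscle (371 to 511 against 339 to 408 CPM, 4 of 7). They also overlapped for tendon (47.2 to 164 against 16.6 to 52.1 CPM, 1 called lower), adipocytes (9.12 to 19.9 against 6.16 to 12.01 CPM, 1 called lower), and regenerating fibres and satellite cells (59.8 to 80.2 against 55.6 to 84.7 CPM, 2 called lower). Of all tested genes, 8.23% were called lower. No gene of these lists was at 0 in every library. Their part in the results was not tested.

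Of 24 other LIM domain genes tested, 1 rose and 5 fell (25.0% called, against 14.9% of all tested genes in either direction), with a median log2 fold change of -0.24. Lims1 (PINCH), an adaptor of integrin adhesions, read 49.9, 63.7 and 62.0 CPM in the controls and 41.0, 34.1, 43.2 and 41.1 CPM in the knockouts (log2 fold change -0.55, SE 0.113, adjusted p = 0.0157). On the log2 scale its relative Lims2 fell by 0.56, with an adjusted p of 0.0228. The short LIM protein gene Crip1 fell by 0.62 (adjusted p = 0.0197). The gene that rose was Pxn, which encodes paxillin of focal adhesions, at 0.39 (adjusted p = 0.0262). Named to spell out the count, Nrap, an actin anchor of growing myofibrils, fell by 0.53 and Pdlim4 by 0.87 (adjusted p = 0.0352 and 0.0484). The list held 2 genes that fell without control 1, control 2, knockout 3 or knockout 4, 1 without control 3 and 3 without knockout 1. Calls ended for Lims1 without control 2 (0.0548) or control 3 (0.0644), for Crip1 without control 1 (0.0552) or control 3 (0.0734), and for Lims2 without control 1 (0.0769), control 2 (0.0752), knockout 3 (0.0616) or knockout 4 (0.0566). Nrap was called in 2 and Pdlim4 in 1 of the 7 fits that leave out a library. With the replicate number as a block, the calls of Crip1, Nrap and Pdlim4 also ended (0.0562, 0.0728 and 0.102). None of the list rose without control 1, control 2 or knockout 3 (Pxn adjusted p = 0.107, 0.0781 and 0.0677), and 2 did without knockout 1.

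Of the Z-disc and titin proteins that these genes' products bind or sit beside, 4 rose and 7 fell among 35 tested, with a median of -0.034. The share called was 31.4%, against 14.9% of all tested genes in either direction. Actn2, the alpha-actinin of the Z-disc in slow and oxidative fibres, read 1159, 1982 and 1422 CPM in the controls and 585, 836, 364 and 529.9 CPM in the knockouts. Its log2 fold change was -1.39 (SE 0.266, adjusted p = 0.0128). Actn3, the alpha-actinin of fast fibres, rose from 6013 to 8330 CPM in the controls to 10628 to 12848 CPM in the knockouts. Its log2 fold change was 0.74 (adjusted p = 0.0214), and its call ended without control 1 (0.0867) or control 2 (0.0738). Myoz2, Cryab, Lmod3 and Trim55 were also called lower and Capn1 higher. Without control 2 the calls of Myoz2 (0.133), Lmod3 (0.0518), Trim55 (0.0883) and Capn1 (0.134) ended. Myoz2, Trim55 and Capn1 were each called in 2 of the 7 fits that leave out a library. Actn3, Myoz2, Cryab, Lmod3, Trim55 and Capn1 were named after their values were seen. Klhl41, a kelch protein of the sarcomere, fell by 0.68 (SE 0.130, adjusted p = 0.0126). Trim63 (MuRF1), a ubiquitin ligase at the M-band and Z-disc, read 235, 242 and 159 CPM in the controls and 572, 738, 395 and 482 CPM in the knockouts, a rise of 1.37 (SE 0.223, adjusted p = 0.00795). Mypn, which encodes myopalladin, the Z-disc partner of Ankrd1, rose by 0.45 (SE 0.0837, adjusted p = 0.0117), but its call ended when control 1 was left out (0.0559). Actn2, Klhl41 and Trim63 kept their call without each library in turn. Of the titin spring partners, Capn3 (calpain 3), named after its values were seen, fell by 0.36, with an adjusted p of 0.0139 that became 0.0510 when control 2 was left out and 0.0599 when control 3 was. Titin itself, Ttn, read 11518 to 12452 CPM in the controls and 10256 to 11479 CPM in the knockouts so that all knockouts lay just below all controls, and it was not called (log2 fold change -0.14, adjusted p = 0.504). Of this list 1 gene rose without control 1 and 2 without control 2, while 3 fell without control 2 and 4 without control 3.

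Among genes of the YAP-TEAD and SRF pathways, which carry mechanical signals to the nucleus, 4 rose and 1 fell of 35 tested (median 0.065). The share called was 14.3%, close to the 14.9% of all tested genes called in either direction. Tead4, a factor that binds the MCAT motif shown for Ankrd1, read 5.67, 4.71 and 4.10 CPM in the controls and 13.5, 14.3, 15.8 and 8.14 CPM in the knockouts, a rise of 1.42 (SE 0.228, adjusted p = 0.00739). Lats2, a kinase that restrains YAP, rose by 0.62 (SE 0.103, adjusted p = 0.00843), and both kept their call without each library in turn. Amotl1, which binds YAP, rose by 0.54 (adjusted p = 0.0161), and Acta2, the smooth muscle actin and SRF target, fell by 0.42 (adjusted p = 0.0226). The fourth gene that rose, named to spell out the count, was the kinase Lats1 at 0.31 (adjusted p = 0.0340), which was called in 2 of the 7 fits that leave out a library. Calls of Amotl1 ended without control 2 (0.0542) or control 3 (0.0636) and of Acta2 without control 1 (0.0837), control 3 (0.0731) or knockout 4 (0.0553). The replicate number as a block ended the calls of Acta2 (0.0540) and Lats1 (0.0809). Yap1 and Srf had log2 fold changes of 0.07 and 0.49 and were not called (adjusted p = 0.702 and 0.0677). Of this list 2 genes rose without control 2 or control 3, 9 without knockout 2 and 8 with DESeq2. Those that fell numbered 0 without control 1, control 3 or knockout 4, 4 without knockout 2, and 2 with DESeq2.

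**Figure D4:**
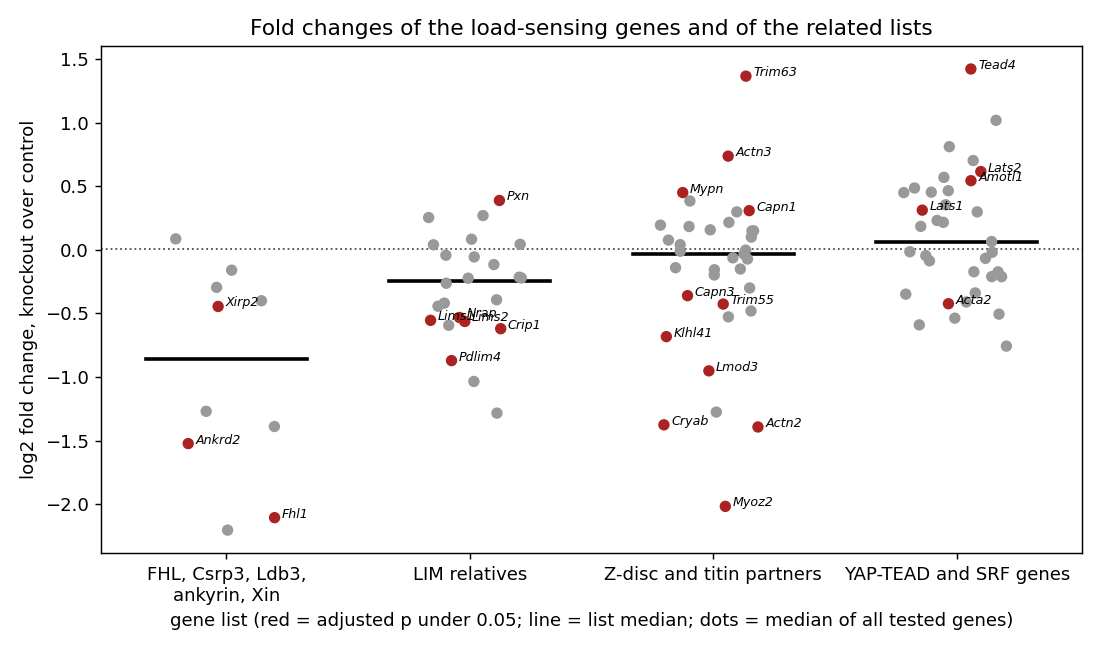
Log2 fold change, knockout over control (vertical axis), of each gene in the group and in the lists of LIM relatives, Z-disc and titin partners, and YAP-TEAD and SRF genes; black lines are list medians, red points have an adjusted p under 0.05 and the dotted line is the median of all tested genes. The medians are -0.86, -0.24, -0.034 and 0.065, and Tead4 (1.42) and Trim63 (1.37) are the highest points.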

How the data were processed

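Gastrocnemius RNA was sequenced as paired ends of 150 bp, per the labels' protocols. The authors mapped reads to mm10 with STAR 2.7.10a and used RSEM 1.2.28 for quantification, per the labels. The deposited table holds RSEM expected counts per gene, rounded here to whole numbers. Those of the 10 genes were already whole in the file. Annotation and strand: not given in the sources used here, so reads of overlapping antisense genes cannot be told apart.

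Testing used edgeR 4.0.16 in R 4.3.3 (filterByExpr, TMM, glmQLFit without a robust prior). It was checked on simulated counts. The SE of a log2 fold change is its size divided by the root of F. CPM uses TMM library sizes. Positions and exon lengths came from GENCODE M21 on GRCm38. With totals of 24458343 counts or more, Fhl2 rested on 7 to 69 counts per library.

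The genes and lists were chosen with earlier results of these data known. Named by rule were the 10 genes, Park7, up to 4 called genes of each related list with the smallest p, the 3 genes nearest in shape to each called gene of the group (average log2 CPM above 1, prior count 2) and 4 myosins. Ratios had 0.5 counts added. Alternatives were DESeq2 1.42.0, RLE and upper quartile scaling, a filter at a mean count of 10 or none, a robust prior, the replicate number as a block, 5 counts added to ratios, and each library left out. The block gives knockout 4, which has no control of its number, no weight in the group difference. It also leaves less from which to measure the spread.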

Additional observations from a re-analysis of the deposited data

Results flagged for a closer look

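Ankrd1 in knockout 1 (34.3 CPM) stood apart from the other knockouts, which read 10.2, 9.08 and 6.93 CPM. Capn3 in knockout 1 (111 CPM) was lower than the others, a small step that stands out because those read 119, 120 and 120 CPM. Cryab, a small heat shock protein of the Z-disc, was higher in knockout 1 (817 CPM) than in the others (499, 452 and 495 CPM). Dixon's test over the 4 knockouts was run for 56 named genes and marked these 3, where chance marks about 1 in 20.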

How the results depend on the processing

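Fhl2, at 7 to 69 counts per library, had the fewest counts of the 10 genes. The 3 genes that fell became 1 to 5 with 1 library left out, and none of the 10 was called higher in any fit. Over all genes, 258 to 966 were then called higher (895 with all libraries) and 528 to 1091 lower (1103). LIM relatives called higher numbered 0 to 2 and lower 1 to 5, Z-disc and titin partners 1 to 4 and 3 to 7, and YAP-TEAD and SRF genes 2 to 9 and 0 to 4. DESeq2 called 8 YAP-TEAD and SRF genes higher and 2 lower. With the replicate number as a block, 577 genes were called higher and 696 lower, 1 of the 10 genes fell (Fhl1), 3 LIM relatives fell and 2 YAP-TEAD and SRF genes fell, without Acta2. Among the named genes that block also ended the calls of Ankrd2 (0.0859), Xirp2 (0.0603), Crip1 (0.0562), Acta2 (0.0540), Rab15 (0.0759), Nrap (0.0728), Pdlim4 (0.102), Lats1 (0.0809) and Prg4 (0.0814). It further ended those of Wdr1 (0.0828), Shisa4 (0.0865), Cryab (0.0687), Mustn1 (0.169), Capn1 (0.0601), Trim55 (0.0525), Hspb7 (0.100), Rrad (0.0744) and Cd68 (0.119). Lmod2 gained a call (0.0260), while Fhl3 turned to -0.15, Xirp1 to 0.12 and Flnc to 0.34 (log2). Deviations of libraries with the same number correlated at 0.0945, 0.134 and 0.0854 over genes, so the numbers were not taken to pair the samples, although each of those 3 controls correlated best with the knockout of its own number. With 1 library left out, log2 fold changes that changed sign ran from -0.14 to 0.25 for Fhl3, -0.74 to 0.57 for Xirp1, -1.04 to 0.21 for Hspb1, -0.63 to 0.24 for Tiam2 and -0.25 to 0.56 for Flnc. The Ankrd1 to Ankrd2 ratio then ran from -0.97 to 0.29 and the Xirp1 to Xirp2 ratio from -0.11 to 0.82. Of 392 fold changes of named genes with 1 library left out, 270 kept direction and side of the threshold, 111 lost a call, 4 gained one and 7 changed sign. The causes were not tested.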
